A study of Homo sapiens with 10 samples.

Results

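Lines of A549, a long-established cell line from a human lung adenocarcinoma, fell into 2 groups by the level of DPYSL3, a cytoskeletal adaptor of the collapsin response mediator family that is best known from growing neurons. The group called DPYSL3-high holds the 4 libraries of the wild-type (WT) line and of the line with the ABCA3 variant E292V, each with over 5000 DPYSL3 counts. The group called MUC5AC-high holds the 6 libraries of the lines with the variants L101P and E690K and of a line whose label is ABCA3 knockout (KO), each with under 400 DPYSL3 counts. The lowest DPYSL3 count inside the first group was 5574 and the highest in the second was 366. Together the groups take in 10 of the 10 libraries of the series and its 5 lines.

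ABCA3 moves lipid into the lamellar bodies, the surfactant stores of alveolar type 2 cells. Each line was sampled once untreated and once after a night with a VSVG-coated lentiviral vector for an ABCA3-GFP fusion (multiplicity of infection 20), and all were grown in DMEM with fetal bovine serum. Each genotype is represented by 1 line and each line and treatment by 1 library. The promoter of the vector and the number of clones behind a line are not given in the sources used here. WT shares its group with E292V, so the grouping does not follow the split between the line labelled WT and the lines labelled variant or knockout.

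The libraries held 59430095 to 96811421 counts, with 4.27% to 5.71% from mitochondrially encoded genes. In the KO pair the targeted gene went against the labels. ABCA3 counts were 45023 in the library labelled KO untreated and 2092 in the one labelled KO transduced, and EGFP counts were 2842 and 4. Every direction of change with the vector in that pair therefore rests on the labels. In the other libraries labelled untreated, EGFP counts were 5924 in WT, 1634 in E292V, 60 in L101P and 1236 in E690K. In their transduced partners they were 12432, 6338, 3474 and 1406. Libraries labelled untreated were thus not free of EGFP reads, and EGFP differed little within the E690K pair. The source of these reads was not tested. A tdTomato row had 0 counts in both KO libraries and 236 to 756 in the others. Of 19 surfactant and alveolar type 2 genes 11 passed the filter on low counts. The surfactant proteins SFTPC and SFTPB had 0 to 26 and 0 to 12 counts. NKX2-1, a lung lineage transcription factor, had 0 to 16 counts, while ABCA3 reached 1151 CPM. The vector also carries ABCA3, so the ABCA3 level may include reads of the vector. Simple-epithelial keratin transcripts were abundant, with KRT8 at 3674 to 7941 CPM (counts scaled to the library total after adjustment by the trimmed mean of M-values).

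Gel-forming mucins such as MUC5AC are the structural proteins of airway mucus and are made by goblet cells together with trefoil peptides. CEACAM adhesion proteins and keratins of stratified epithelium are carried by epithelial cells. Genes such as ZEB2, SPARC, MMP2 and TAGLN belong to the mesenchymal programme, in which epithelial cells lose junctions and gain a contractile cytoskeleton and matrix remodelling. The gene lists below follow these roles. They were drawn up with earlier results of these libraries known, and DPYSL3 and MUC5AC stand in 2 of them, so the counts describe these 5 lines and test nothing.

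Because the libraries were grouped by a measured gene, the difference between the groups is given as a description with no p-value. It is a log2 difference, DPYSL3-high minus MUC5AC-high, with its standard error (SE) from edgeR's quasi-likelihood fit over the 10 libraries with vector status as covariate. A gene is called higher or lower where its Benjamini-Hochberg adjusted value passed 0.05. Of 17301 genes tested, 1117 (6.46%) were called higher and 1244 (7.19%) lower in the DPYSL3-high lines. Levels did not overlap between the groups for 1059 (6.12%) higher and 1099 (6.35%) lower genes. The fit counts the paired libraries of a line as separate units. With the counts of each line summed, 2 lines against 3, 244 genes were called higher (1.32% of 18532) and 321 lower (1.73%), which makes 3.05%. Of the 1117 and 1244 genes, 243 and 318 were also called in that fit. Without the E292V line 405 genes were called in all, against 2361, and without the L101P line 1432. Without the KO line 1633 were called, 743 of them higher.

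Among all genes called, large differences were more often in the direction of the DPYSL3-high lines. More than 8-fold differences were found for 53 higher and 14 lower genes, and more than 2-fold for 257 and 154. These counts include genes at low levels, which were more frequent among the higher genes. Of the 1117 higher genes 919 averaged at least 1 log2 CPM, and of the 1244 lower genes 1170. Among the 14 genes selected each way below, which met that level, the smallest log2 differences were 2.22 and -2.19. The median log2 difference was 0.46 among the higher and -0.36 among the lower genes, and 0.02 over all genes tested. Among protein-coding genes 7.16% were called higher and 8.33% lower. Among 1520 annotated antisense genes 44 (2.89%) were higher and 7 (0.461%) lower. Both shares were below those over all genes tested, 6.46% and 7.19%. Whether counting used strand is not stated, so reads of an antisense gene and its partner cannot be told apart.

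DPYSL3 (chr5:147390811-147510056, minus strand, in the GRCh38 annotation GENCODE 29) and GFRA1 (chr10:116056925-116273467, minus strand), the co-receptor that binds GDNF and presents it to RET, had the largest differences of the genes selected below. CEACAM6 (chr19:41750977-41772208, plus strand) and CAPN8 (chr1:223538007-223665734, minus strand), a calpain protease of mucous cells of the stomach, lay on the other side. A RefSeq promoter window on GRCh38.p14, from 250 bases before to 50 after an annotated start, is shown for each of these 4, as members of the groups of genes that differed together. Of the 28 genes selected by size, 20 had a window. The motifs searched on both strands were CACCTG, the E-box bound by ZEB and SNAI repressors, TGTTTAC, the forkhead motif, TGANTCA, the AP-1 motif, and TATAAA, the TATA box. Capitals mark their matches, which do not overlap each other in these windows. The DPYSL3 window is that of its second listed start, chr5:147453643-147453942, and GFRA1's is that of its first, chr10:116274656-116274955. Each was shown because it holds a match, and the other DPYSL3 start and the other 3 GFRA1 starts in the table hold none. CEACAM6's lies at chr19:41755280-41755579 and CAPN8's at chr1:223665652-223665951.
DPYSL3: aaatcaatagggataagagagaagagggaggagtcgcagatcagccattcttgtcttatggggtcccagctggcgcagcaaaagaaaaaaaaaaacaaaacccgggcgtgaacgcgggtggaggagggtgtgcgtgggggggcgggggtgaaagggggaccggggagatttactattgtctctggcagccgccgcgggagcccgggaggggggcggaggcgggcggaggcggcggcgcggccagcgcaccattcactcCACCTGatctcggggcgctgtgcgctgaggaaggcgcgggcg
GFRA1: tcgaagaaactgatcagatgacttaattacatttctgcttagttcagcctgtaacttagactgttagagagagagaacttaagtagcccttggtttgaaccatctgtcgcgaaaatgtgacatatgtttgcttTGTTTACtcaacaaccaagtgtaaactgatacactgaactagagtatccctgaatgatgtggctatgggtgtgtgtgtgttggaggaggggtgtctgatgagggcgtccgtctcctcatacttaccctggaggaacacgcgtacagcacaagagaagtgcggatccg
CEACAM6: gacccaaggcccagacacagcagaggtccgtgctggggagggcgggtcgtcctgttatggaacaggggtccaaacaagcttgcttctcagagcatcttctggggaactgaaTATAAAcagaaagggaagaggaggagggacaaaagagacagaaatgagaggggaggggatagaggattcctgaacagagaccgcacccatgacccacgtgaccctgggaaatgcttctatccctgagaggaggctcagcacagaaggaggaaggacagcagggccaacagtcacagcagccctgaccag
CAPN8: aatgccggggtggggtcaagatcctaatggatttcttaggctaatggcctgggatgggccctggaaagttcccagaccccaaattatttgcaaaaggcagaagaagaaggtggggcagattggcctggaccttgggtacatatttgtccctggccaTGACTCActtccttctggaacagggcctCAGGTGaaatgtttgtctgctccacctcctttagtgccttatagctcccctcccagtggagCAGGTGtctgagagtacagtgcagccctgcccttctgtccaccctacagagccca

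The DPYSL3 window holds 1 E-box from its base 259, which lies 8 bases past the start. GFRA1's holds the forkhead motif from base 134, at -117 from the start. CEACAM6's holds the letters TATAAA from base 112, at -139 from the start, and whether they act as a TATA box was not tested. The CAPN8 window holds the E-box on the opposite strand from bases 185 and 246, where it reads CAGGTG, and the AP-1 motif from base 157. These letters are common. Of 35116 windows in the table, 20.6% held the E-box, 3.42% the forkhead motif, 7.71% the AP-1 motif and 11.5% the TATA box. The E-box stood in 17.9% of the windows of higher genes, 21.1% of those of lower genes and 19.2% of those of all genes tested. In the same order the AP-1 motif stood in 5.82%, 8.20% and 5.53%, the forkhead motif in 2.91%, 2.69% and 2.73%, and the TATA box in 6.65%, 6.76% and 6.75%. A match is a description of the letters and not evidence of binding.

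The genes described one by one are those called with the largest log2 difference, 14 in each direction, provided that they averaged at least 1 on the log2 CPM scale and showed no overlap between the groups. DPYSL3 itself was at 65.6 CPM in untreated and 201 in transduced WT, and at 105 and 444 in E292V. In the MUC5AC-high libraries it ran from 0.978 to 4.81 CPM with a median of 1.78, and the E690K pair was highest. GFRA1 had 640, 1542, 532 and 2243 counts in the WT pair and the E292V pair. It had 2 and 0 counts in the KO pair, 0 in both L101P libraries and 14 and 36 in the E690K pair. The transcript was thus close to absent in 4 libraries, and its fitted log2 difference of 6.91 (SE 0.63) depends on the prior count of the fit. APBB1IP, an adaptor that links Rap1 to talin and integrin activation, had 358, 704, 554 and 1864 counts against 0 to 32.

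**Figure D1:**
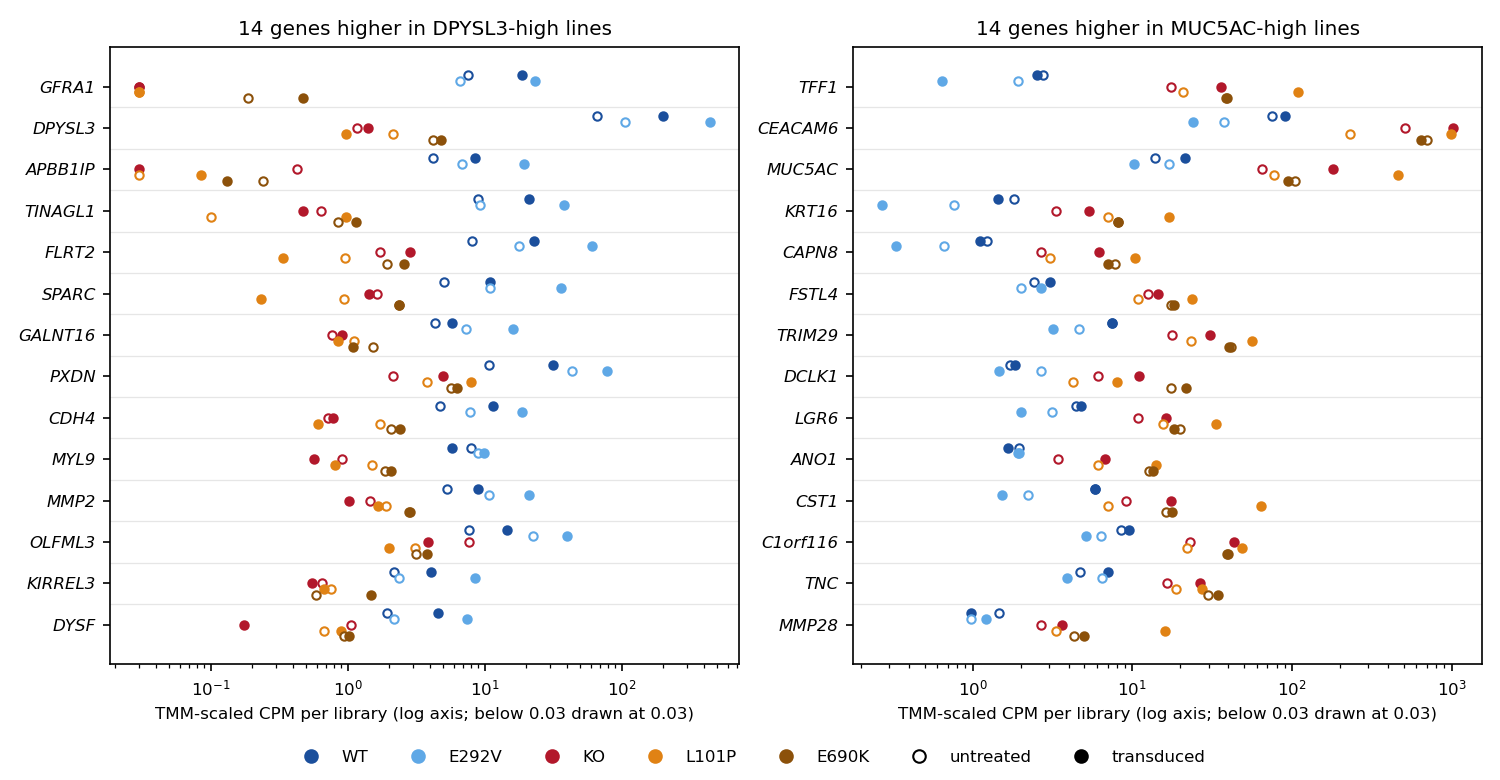
CPM per library on a log axis for the 14 genes with the largest difference in each direction; colours mark the line, open circles untreated and filled circles transduced libraries, and levels below 0.03 CPM are drawn at 0.03. The genes were selected for no overlap between the WT and E292V libraries (blue) and the other 6. The transduced E292V library is highest for all 14 genes on the left.

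TINAGL1, a secreted basement membrane protein, was at 8.88 and 21.0 CPM in WT and 9.28 and 37.9 in E292V, against 0.101 to 1.14 with a median of 0.748, a log2 difference of 4.62 (SE 0.37). FLRT2, an adhesion molecule that binds UNC5 receptors, was at 8.05 and 23.1 CPM in WT and 17.7 and 60.3 in E292V, against 0.340 to 2.86 with a median of 1.83. Its lowest level was in transduced L101P. SPARC, a collagen-binding matrix protein, was at 5.09, 10.8, 11.0 and 36.3 CPM in the same order, against 0.234 to 2.37 (log2 difference 3.27, SE 0.56). PXDN, the peroxidase that crosslinks collagen IV, was at 10.7, 31.5, 43.1 and 77.9 CPM, against 2.13 to 7.97 with a median of 5.31. For TINAGL1, FLRT2, SPARC and PXDN the transduced library of each DPYSL3-high line stood above the untreated one.

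MMP2, a gelatinase, was at 5.30, 8.93, 10.8 and 21.0 CPM in the DPYSL3-high libraries, against 1.02 to 2.84. OLFML3, a secreted olfactomedin-domain protein, came closest to overlap: untreated WT had 7.70 CPM and the library labelled KO untreated 7.67. The remaining higher genes were the O-glycosyltransferase GALNT16 (log2 difference 2.96, SE 0.33), the cadherin CDH4 (2.86, SE 0.43), the myosin light chain MYL9 (2.67, SE 0.31), the immunoglobulin-type adhesion molecule KIRREL3 (2.33, SE 0.32) and the membrane repair protein DYSF (2.22, SE 0.45). MYL9 differed from the others in the WT pair, where it was at 7.97 CPM untreated and 5.76 transduced. All 14 genes were also called with counts summed by line. Without the E292V line, SPARC, OLFML3 and DYSF were not called.

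TFF1, the trefoil peptide secreted with MUC5AC, had the largest difference of the 14 genes selected in the other direction. It was at 2.78 and 2.55 CPM in WT and 1.93 and 0.646 in E292V, against 17.6 to 109 with a median of 37.1, which is 19.9-fold lower (log2 difference -4.31, SE 0.54). MUC5AC was at 13.9, 21.5, 17.1 and 10.3 CPM in the DPYSL3-high libraries, against 64.7 to 459 with a median of 99.2. Its highest level was in transduced L101P, and the other MUC5AC-high libraries were at 180 CPM or less. CEACAM6, a cell-surface adhesion protein of mucosal epithelium, was at 75.0, 90.6, 37.3 and 23.9 CPM, against 229 to 1024. For TFF1, CEACAM6 and MUC5AC the transduced E292V library was the lowest of the 10. MUC5AC, CEACAM6 and KRT16 share sequence with neighbouring family members or pseudogenes, and how shared reads were counted is not stated, so their levels are uncertain to that extent.

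KRT16, a keratin of stressed stratified epithelium, was at 1.81, 1.44, 0.765 and 0.271 CPM against 3.33 to 16.9, and CAPN8 at 1.24, 1.12, 0.666 and 0.333 against 2.68 to 10.4. TRIM29, a ubiquitin ligase of basal and squamous cells, was at 7.44, 7.50, 4.66 and 3.21 CPM against 17.7 to 56.1. LGR6, a receptor for R-spondins that marks epithelial stem cells, was at 4.44, 4.76, 3.12 and 2.02 CPM against 10.8 to 33.3. FSTL4, a follistatin-like protein, had the smallest SE of the 28 genes: 2.41, 3.06, 2.02 and 2.69 CPM against 10.8 to 23.6 (log2 difference -2.67, SE 0.17). DCLK1, a doublecortin-like kinase that marks tuft cells, was lower by the same order (-2.54, SE 0.43), and its highest levels were in the E690K pair, 17.5 and 21.6 CPM. ANO1, a calcium-activated chloride channel (-2.28, SE 0.35), C1orf116 (-2.25, SE 0.23) and the matrix glycoprotein TNC (-2.19, SE 0.22) completed the genes that were also called with counts summed by line. The cystatin CST1 (-2.27, SE 0.57) and the metalloproteinase MMP28 (-2.19, SE 0.44) were not called in that fit, nor without the E292V line. CST1 was at 64.0 CPM and MMP28 at 16.1 in transduced L101P, far above the next library, at 17.6 and 5.01 CPM.

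The counts of each list below can be read beside the shares over all genes tested, 6.46% higher and 7.19% lower. In bulk RNA, fewer cells with a transcript and less of it in each cell cannot be told apart. Of 25 mucous and goblet cell genes 15 passed the filter and were tested. Of the 15, 4 were called lower, none higher and 11 not, with a median log2 difference of -0.83 against 0.02 over all genes tested. Beside TFF1 and MUC5AC these were MUC5B (-1.62, SE 0.34), the other airway gel-forming mucin, and FCGBP (-1.35, SE 0.41), a protein of mucus. MUC5B was at 88.3 to 271 CPM in the DPYSL3-high and 364 to 1233 in the MUC5AC-high libraries. SPDEF (-0.63) and FOXA3 (-0.40), transcription factors of goblet cells, were not called. With counts summed by line 3 of the 15 were called lower. Of 12 CEACAM genes 6 passed the filter and were tested. Of these 5 were lower, with a median of -1.92, and 3 with counts summed by line. CEACAM5 (-2.51, SE 0.52) overlapped between the groups, at 1.81 to 3.60 CPM against 2.05 to 34.5.

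Of 23 genes of stratified epithelium 10 passed the filter on low counts and were tested, and 6 had 0 counts in every library. Of the 10 tested 6 were lower, none higher, with a median of -1.27. KRT6A (-3.05, SE 0.67), KRT15 (-1.37, SE 0.22) and TP63 (-1.16, SE 0.27), the master regulator of basal cells, were among them. KRT13 had 0 to 2 counts in the DPYSL3-high libraries, so it passed the filter only through the MUC5AC-high ones. Of 19 epithelial junction, keratin and splicing genes 8 were lower and 1 higher, with a median of -0.47. KRT19 (-1.45, SE 0.26) was at 61.6 to 138 CPM against 203 to 473, CLDN4 (-1.16, SE 0.21) at 2.97 to 5.49 against 6.47 to 13.8, and KRT8, KRT18 and KRT7 were lower by 0.47, 0.44 and 0.28 on the log2 scale. CLDN1 was the higher one (0.42, SE 0.10). E-cadherin CDH1 (0.10), the splicing factor ESRP1 (0.29) and OCLN (0.14) were not called. The lower keratins and claudins thus stood beside a junction cadherin whose difference was within its error.

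Of 24 mesenchymal genes tested 10 were called higher, none lower and 14 not, with a median of 0.41, and 4 were called with counts summed by line. ZEB2, a repressor of E-cadherin, had 94, 132, 142 and 472 counts in the WT and E292V pairs against 0 to 24 counts (log2 difference 4.11, SE 0.79). TAGLN, an actin-binding protein of smooth muscle, was at 5.13 and 7.90 CPM in WT and 17.5 and 22.3 in E292V, against 2.25 to 3.58. COL1A1 (1.54, SE 0.31), SNAI1 (1.26, SE 0.29), CDH2 (0.96, SE 0.28) and TWIST1 (0.96, SE 0.21) were smaller differences. TPM1, a tropomyosin, was at 644 to 1328 CPM against 329 to 585. VIM (0.04), ZEB1 (0.15) and FN1 (0.43), which are often read as the core of this programme, were not called. Of the 10 genes called, TAGLN and MMP2 were also called without the E292V line.

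Some markers of fibroblasts and smooth muscle were higher along with this group. Over the 12 genes of that list the summed level was 51.0 to 153 CPM in the DPYSL3-high and 28.2 to 48.1 in the MUC5AC-high libraries. Of 8 tested, COL1A1 and THY1 (1.28, SE 0.13) were higher. The median log2 difference of 1.37 was the largest positive one of the lists, and the CEACAM median of -1.92 was larger in size. PDGFRB (2.31), PDGFRA (1.54) and COL3A1 (1.46) were not called. Neither were the smooth muscle genes MYH11 (0.45) and ACTA2 (0.22), nor LUM (-0.52), which lay in the other direction. Of the 4 genes not tested, in the DPYSL3-high libraries DCN had 0 counts in each, COL1A2 0 to 22, FAP 0 to 12 and DES, of muscle, 0 to 4. The part of such cells in the mesenchymal difference was not tested. Of 5 endothelial markers tested ESAM was higher (0.97), and PECAM1 had 0 to 8 counts in the 10 libraries. Of 5 immune markers CD68, a lysosomal protein also made by epithelial lines, was lower (-0.57), and PTPRC had 0 to 10 counts. Of 6 neuronal and neuroendocrine markers SNAP25 (1.15) was higher and CHGB (-1.15) lower.

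**Figure D2:**
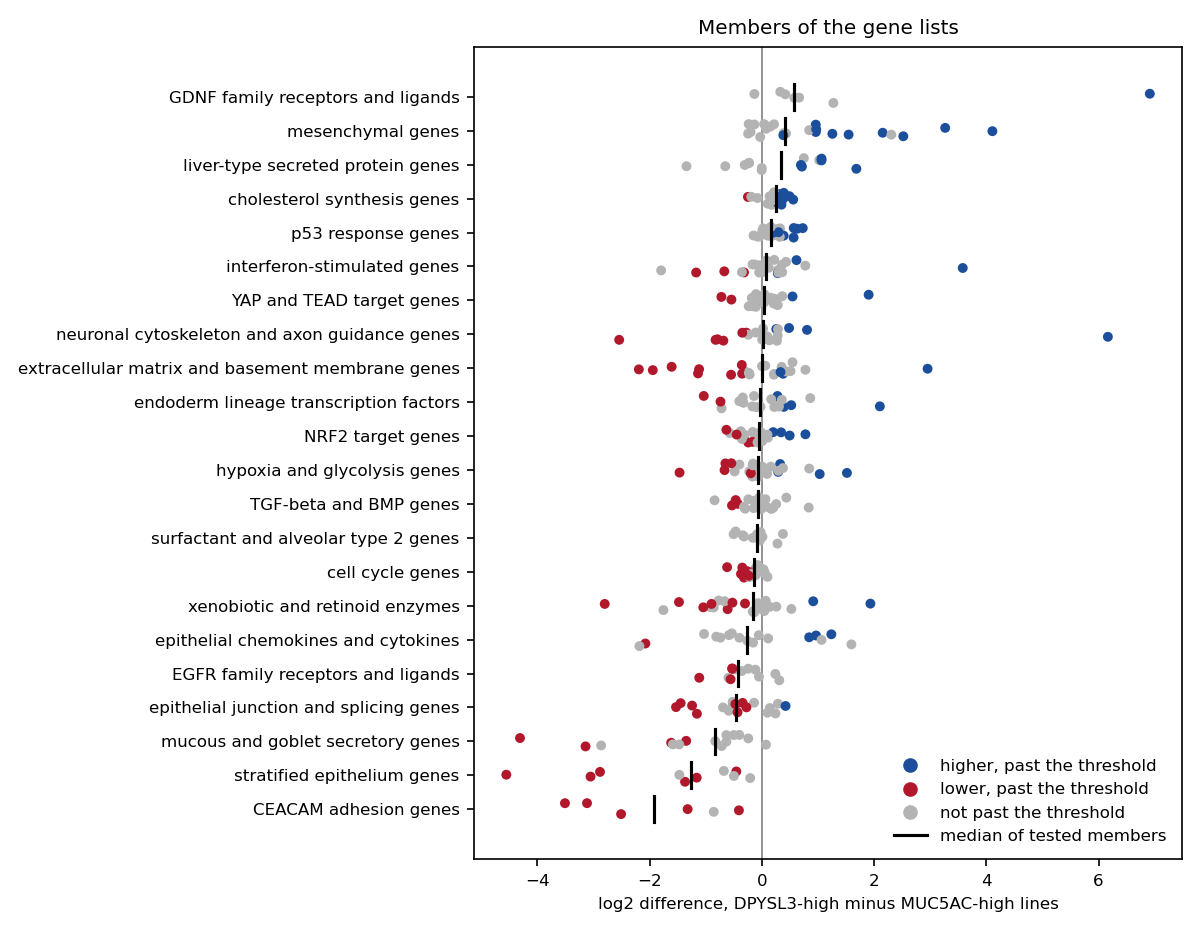
Each point is 1 tested gene of a list, placed by its log2 difference between the DPYSL3-high and the MUC5AC-high lines; colour marks whether it was called and the black bar is the median of the list's tested genes. CEACAM, stratified epithelium and mucous genes lie to the left with medians of -1.92, -1.27 and -0.83, while the mesenchymal median is 0.41.

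The relatives of DPYSL3 did not share its difference. Of 24 neuronal cytoskeleton and axon guidance genes 4 were higher and 6 lower, with a median of 0.02. DPYSL2 (0.26, SE 0.07) and DPYSL5 (0.80, SE 0.18) were higher by far less than DPYSL3 and overlapped between the groups, and DPYSL4 (0.27) and CRMP1 (0.13) were not called. The semaphorin receptors NRP1 (-0.28, SE 0.05) and PLXNA2 (-0.83, SE 0.17), the microtubule regulator STMN3 (-0.79, SE 0.11) and the adhesion molecule L1CAM (-0.69, SE 0.20) were lower. GFRA1 was likewise the 1 member called of 7 tested GDNF receptors and ligands. RET, its signalling partner, had 83 to 394 counts (0.42, not called), and the ligand GDNF had 0 counts in 9 of the 10 libraries and 8 in the library labelled KO untreated.

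Of 23 matrix genes 3 were higher and 8 lower, with a median of 0.00. The laminin chains LAMB3 (-1.61, SE 0.17) and LAMA3 (-0.35, SE 0.06) were lower, as were the neighbouring collagen IV genes COL4A5 (-1.14, SE 0.19) and COL4A6 (-1.95, SE 0.25). LAMB3 was at 42.0, 47.3, 40.4 and 27.8 CPM in the WT and E292V libraries against 89.6 to 152 in the others. COL4A1 (0.55) and COL4A2 (0.21), the ubiquitous collagen IV chains, were not called, and the crosslinking enzyme PXDN was the largest higher member. Of 12 receptors and ligands of the epidermal growth factor family 4 ligands were lower, with a median of -0.42: TGFA (-1.12, SE 0.19), AREG (-0.56, SE 0.09), EREG (-0.53, SE 0.11) and BTC (-0.53, SE 0.12). The receptor EGFR (-0.36) and the ligands EGF (-0.49), HBEGF (-0.24), NRG1 (0.24), NRG2 (-0.05) and NRG4 (0.31) were not called. EGR1 (-2.09, SE 0.23) and FOSB (-1.92, SE 0.29), immediate early transcription factors induced by such signals, were singled out after their values were seen. EGR1 was at 1.33 to 1.85 CPM in the DPYSL3-high and 3.62 to 8.43 in the MUC5AC-high libraries.

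Over all genes tested 6.46% were higher and 7.19% lower, and in the short lists of this paragraph 1 or 2 genes in a direction are close to that background. Of 24 TGF-beta and BMP genes 4 were lower (median -0.08), among them both type I and type II receptors, TGFBR1 (-0.43, SE 0.07) and TGFBR2 (-0.47, SE 0.10). Of 21 YAP and TEAD target genes 2 were higher and 2 lower (median 0.04): ANKRD1 was at 6.98 to 24.8 CPM against 2.25 to 5.42, and MYOF was lower (-0.54, SE 0.08). Among 17 chemokines and cytokines the neutrophil attractant CXCL8 was lower (-2.08, SE 0.26) and IL11 (1.24, SE 0.22), CSF1 (0.84, SE 0.10) and CCL2 (0.96, SE 0.25) were higher, with a median of -0.26. Of 24 interferon-stimulated genes 3 were higher and 3 lower (median 0.07). OAS1 (-1.17, SE 0.24) and OAS3 (-0.67, SE 0.07), sensors of double-stranded RNA, were lower.

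Of 25 genes of cholesterol synthesis and its regulation 13 were higher and 1, PMVK (-0.25), lower, with a median of 0.25, and 4 were higher with counts summed by line. The sizes were modest: INSIG1 0.56 (SE 0.11), DHCR7 0.49 (SE 0.07) and CYP51A1 0.39 (SE 0.10). Of 14 secreted proteins typical of liver 5 were higher (median 0.35), namely APOE (1.68, SE 0.29), the fibrinogen chains FGB (1.06, SE 0.19), FGG (1.06, SE 0.23) and FGA (0.71, SE 0.16), and complement C5 (0.69, SE 0.14). None of the 5 was called with counts summed by line. Of 27 NRF2 targets, whose inhibitor KEAP1 is mutated in A549, 4 were higher and 5 lower (median -0.06). HMOX1 (0.77, SE 0.14) and the ferritin chains FTL (0.49, SE 0.08) and FTH1 (0.34, SE 0.10) were higher, and the exporter ABCC3 was lower (-0.63, SE 0.09). Of 25 xenobiotic and retinoid genes 2 were higher and 7 lower (median -0.16), with ALDH3A1 at 619 to 1394 CPM against 1813 to 2707 and the retinoic acid receptor RARB higher (1.93, SE 0.35). Of 25 hypoxia and glycolysis genes 4 were higher and 5 lower (median -0.06), among them ADM (1.03, SE 0.13) and the glucose transporter SLC2A1 (-0.67, SE 0.10).

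Of 26 cell cycle genes 9 were lower and none higher, with a median of -0.14 and 4 lower with counts summed by line: RRM2 (-0.62, SE 0.08), TOP2A (-0.37, SE 0.06) and MKI67 (-0.35, SE 0.07) led them. Of 24 p53 response genes 7 were higher and none lower (median 0.17), among them GDF15 (0.73, SE 0.18), CCNG1 (0.63, SE 0.09) and BAX (0.39, SE 0.06), while the p53 target CDKN1A (0.11) was not called. Of 21 endoderm transcription factors 4 were higher and 2 lower (median -0.03): HNF4A (0.39, SE 0.11) was higher and KLF4 (-0.74, SE 0.09) and EHF (-1.04, SE 0.32) lower. Of 11 surfactant and alveolar type 2 genes tested none was called, with differences from -0.50 to 0.37 and a median of -0.09. ABCA3 itself had a log2 difference of -0.04 (SE 0.64), whose sign turned in 7 of the other settings tried. Its levels overlapped between the groups, at 356 to 1022 CPM against 26.0 to 1151. Reads of the line's own ABCA3 and of the vector were not separated in these levels.

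The higher genes were unevenly spread over the chromosomes. On chromosome 5, which carries DPYSL3 and SPARC, 10.5% of 779 tested genes were called higher and 4.49% lower. Chromosomes 19 and 16 followed with 9.78% and 9.09% higher. The largest shares called lower among autosomes were on chromosome 17, with 10.1%, and chromosome 12, with 9.77%. Gene copy number was not measured, and its part in these shares was not tested.

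The 2 sets of 14 genes were also compared between the untreated and the transduced library of each line. Among the 14 higher genes the median log2 change with the vector was 1.17 in WT and 1.62 in E292V. In the line labelled KO it was -0.22, in L101P -0.50 and in E690K 0.17. All 14 were higher in the transduced E292V library and 13 in transduced WT, and 9 and 10 of them by more than 2-fold in WT and E292V. Over all 17301 genes tested the medians of the 5 lines lay between -0.00399 and 0.00282, and 792 were over 2-fold higher in the transduced library in WT and 787 in E292V. Among the 14 lower genes the median change was 0.88 in the line labelled KO and 1.26 in L101P, where all 14 were higher in the library labelled transduced. It was 0.05 in WT, -0.63 in E292V and 0.02 in E690K. The 14 genes of each set are extremes, and the first set holds DPYSL3, which chose the groups. Over all 919 higher genes that averaged at least 1 log2 CPM the medians were near 0: -0.011 in WT, 0.088 in E292V, -0.084 in KO, -0.052 in L101P and 0.0094 in E690K. Over the 1170 lower genes they were 0.046 in WT, -0.043 in E292V, 0.098 in KO, 0.17 in L101P and 0.022 in E690K. These single pairs have no replicate error, and the direction in the KO pair would turn if its labels were exchanged.

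**Figure D3:**
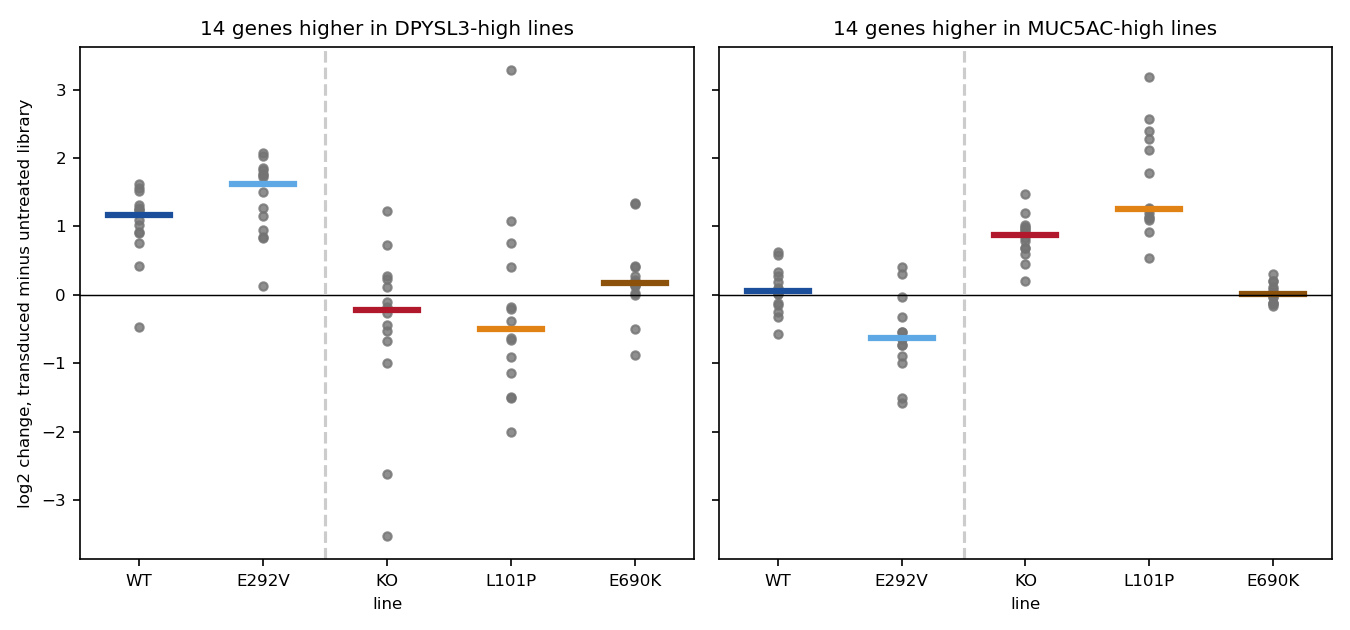
Each point is the log2 difference between the transduced and the untreated library of 1 line for 1 gene; the left panel holds the 14 higher and the right panel the 14 lower genes, coloured bars are medians and the dashed line divides the DPYSL3-high lines (left of it) from the MUC5AC-high lines. The left medians are 1.17 in WT and 1.62 in E292V, and the right medians are 0.88 in KO and 1.26 in L101P.

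Whether the response to the vector differed between the groups was tested across all genes, since that change was not what grouped the libraries. An edgeR quasi-likelihood fit with line as a block and an interaction of group and vector over 17978 genes called 21 genes (0.117%), all with a larger change in the DPYSL3-high lines. DPYSL3 was one of them (log2 interaction 1.98), and is left out below because it chose the groups. The other 20 were higher in the transduced than in the untreated library of both WT and E292V, by 0.47 to 2.08 and 0.54 to 1.78 on the log2 scale. For 17 of them the change was within 0.5 of 0 in each of the other 3 lines. EGFP counts in the E690K pair, 1236 untreated and 1406 transduced, differed little, so a small change there may reflect little added vector, which was not tested. The pair labelled KO had 2842 EGFP counts untreated and 4 transduced. Whether the vector added between paired libraries differed between the groups was not tested either. Of the 20, 13 were called higher in the comparison of the groups, against 6.46% of all genes tested, and 7 were not called there. These results are not independent, since a rise in transduced WT and E292V also raises the level of their group.

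ADAMTS12, a secreted metalloproteinase, had the largest interaction (log2 2.78, SE 0.44, edgeR adjusted p 0.0226). Its change with the vector was 1.81 in WT and 1.60 in E292V, and its changes in the line labelled KO, in L101P and in E690K were -1.13, -2.24 and -0.33. ADAMTS12 was at 1.34 and 4.70 CPM in WT and 2.69 and 8.14 in E292V. Its levels were 1.44 and 0.658 CPM in the line labelled KO, 0.402 and 0.0850 in L101P and 0.562 and 0.447 in E690K. The changes in these last lines therefore rest on few reads. SCN9A, a voltage-gated sodium channel of sensory neurons, followed (1.69, SE 0.24, adjusted p 0.0146). It was at 2.12 and 8.94 CPM in WT and 4.84 and 15.8 in E292V, against 6.88 and 7.94 in the line labelled KO, 1.51 and 1.54 in L101P and 0.776 and 1.01 in E690K. SCN9A therefore overlapped between the groups in level while its change did not. Among the remaining genes were integrins and matrix partners (ITGB6, ITGA11, SPOCK1, SULF2, HAPLN3), the actin crosslinker FLNC, the guidance cue SEMA3E, the adhesion molecules MDGA1 and PODXL, the cholesterol exporter ABCA1, and MARCH4, FRMD6, NAV1, SYNE1, ARHGAP29, PLK2 and DOCK10. Over the 20 genes the edgeR adjusted p-values ran from 0.00698 to 0.0499.

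The interaction rests on few libraries. Without the KO pair edgeR called 0 genes, with 1321 at an unadjusted p under 0.05 and a smallest adjusted p of 0.175. Exchanging the labels of that pair left 6, and leaving out the E292V line left 4. Without the transduced L101P library the number was 124, and without the L101P and the E690K line it was 49 and 79. With WT left out it was 33. Without line as a block edgeR called 0 genes, with 630 at an unadjusted p under 0.05.

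**Figure D4:**
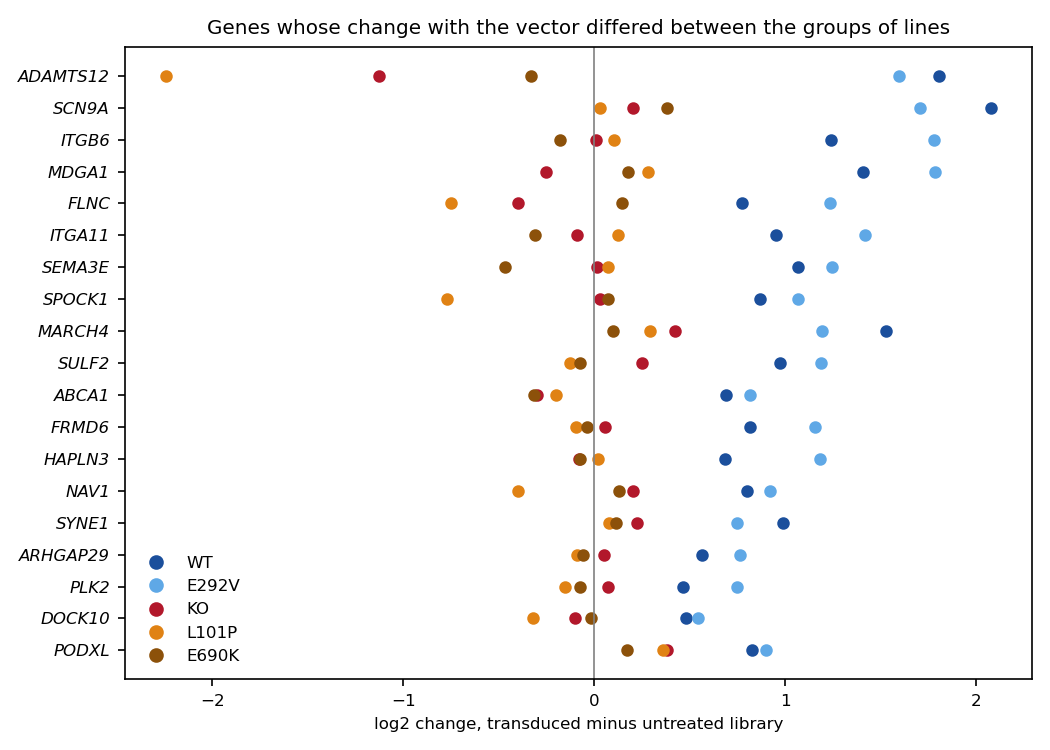
Log2 difference between the transduced and the untreated library in each of the 5 lines for 19 of the interaction genes, DPYSL3 left out. The WT and E292V points lie right of 0 for every gene, between 0.47 and 2.08, and those of the other lines lie within 0.5 of 0, apart from ADAMTS12 in KO and L101P and FLNC and SPOCK1 in L101P.

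The lines within a group were not alike, and these differences are tests the grouping did not use. They were taken from an additive edgeR fit of line and vector. Its error is what the sum of a line and a vector term leaves over in these libraries, so that a p-value covers the spread between libraries and not between independent clones. Between E292V and WT 189 genes (1.05% of 17978) differed, 53 (0.295%) higher and 136 (0.756%) lower in E292V. VCAN, a large matrix proteoglycan, was at 46.6 and 63.0 CPM in E292V against 9.42 and 11.3 in WT (log2 2.39, SE 0.15, adjusted p 1.55e-05). It was not called between the groups, since the MUC5AC-high libraries held 10.4 to 27.4 CPM. PXDN was 1.62 log2 units higher in E292V than in WT (SE 0.22, edgeR adjusted p 0.00884), and BCAT1, a branched-chain aminotransferase, 1.93 (SE 0.42, adjusted p 0.0498). CPS1, the first enzyme of the urea cycle, was at 10.5 and 5.64 CPM in E292V against 26.0 and 27.8 in WT (-1.80, SE 0.22, edgeR adjusted p 0.00515). CES1, a carboxylesterase with a near-identical pseudogene (-4.05, SE 0.56, edgeR adjusted p 0.00884), and C1orf61 (-1.78, SE 0.33, adjusted p 0.0231) were also lower. The count of 189 was 57 without the E690K line, 88 without KO and 689 without L101P.

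Among the MUC5AC-high lines, KO and L101P differed by 25 genes (0.139%), 15 (0.0834%) higher and 10 (0.0556%) lower in KO. RASGRF2, a Ras exchange factor, was at 5.03 and 5.07 CPM in KO against 1.27 and 1.19 in L101P (log2 2.05, SE 0.24, edgeR adjusted p 0.00522). The growth factor homologue FGF12 (1.88, SE 0.24, edgeR adjusted p 0.00952) and the glycosyltransferase MGAT3 (1.83, SE 0.31, adjusted p 0.0478) were also higher in KO. SAGE1 (-1.75, SE 0.14, edgeR adjusted p 0.000126) and KRT17 (-2.09, SE 0.29, adjusted p 0.0157) were lower, as was tdTomato, whose row held 0 counts in KO. KO and E690K differed by 295 genes (1.64%), 125 (0.695%) higher and 170 (0.946%) lower in KO. CPS1 was at 68.9 and 69.2 CPM in KO and 12.2 and 9.61 in E690K (log2 2.69, SE 0.22, edgeR adjusted p 0.000133). SCN9A (3.11, SE 0.45, edgeR adjusted p 0.00545) and the zinc finger gene ZNF606 (2.25, SE 0.29, adjusted p 0.00289) were higher, and BCAT1 (-2.73, SE 0.50, adjusted p 0.0179) was lower.

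L101P and E690K differed by 124 genes (0.69%), 60 (0.334%) higher and 64 (0.356%) lower in L101P. CPS1 was at 70.4 and 37.7 CPM in L101P (log2 2.27, SE 0.22, edgeR adjusted p 0.00138), so that it was high in KO and L101P, intermediate in WT and low in E292V and E690K. KRT4, a keratin of oesophageal epithelium (1.95, SE 0.40, edgeR adjusted p 0.0488), and C9orf152 (1.90, SE 0.34, adjusted p 0.030) were also higher in L101P. FGF12 (-1.76, SE 0.24, edgeR adjusted p 0.00967) and RNF182, a ubiquitin ligase (-1.85, SE 0.34, adjusted p 0.0318), were lower. GFRA1 was lower in KO (edgeR adjusted p 0.0102) and in L101P (adjusted p 0.0109) than in E690K, on 0 to 2 counts against 14 and 36. The MUC5AC-high lines thus shared a low DPYSL3 level and differed among themselves in genes such as CPS1 and SCN9A. Without the transduced L101P library the difference between KO and L101P was 83 genes, and without the E690K line 10. KO and E690K differed by 909 genes without the L101P line, and L101P and E690K by 28 without KO.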

How the data were processed

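RNA sequencing counts per gene were deposited by the authors as whole numbers in 1 table for the 10 libraries. Per the submitters' processing notes the tools were featureCounts from Subread, edgeR and limma, with GRCh38. Annotation, strand use and handling of mate pairs are not given in the sources used here. Of values from 1 to 10, 81.4% were even, against 51.5% of large values, the pattern of mates counted separately, so low counts hold fewer fragments than their value. Of 33551 rows, 98.5% matched a symbol of GENCODE release 29, the source of gene coordinates, and promoter sequences came from RefSeq on GRCh38.p14.

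The analysis used R 4.3.3 and edgeR 4.0.16 (filterByExpr, TMM scaling, quasi-likelihood test, Benjamini-Hochberg over all genes kept, threshold 0.05), with limma 3.58.1 and DESeq2 1.42.0 for alternatives. The comparison of the groups used vector status as covariate over 10 libraries. The interaction used line as a block. Libraries are paired because they come from 1 line, and the consensus correlation within a line was 0.142. The scripts were tested on simulated data. Genes were named by size of difference: 14 in each direction between the groups with an average of at least 1 log2 CPM and no overlap, up to 4 called members of each gene list, 3 in each direction for the interaction and each line contrast, and always DPYSL3, MUC5AC and ABCA3. Further list members are given where they round out a group. The groups, the members and the gene lists were chosen with earlier results of these data known. Reads carry no molecular identifiers, and total counts of 59430095 to 96811421 limit the precision of genes under about 1 CPM. A few genes are counted in the totals and lists and are not reported here by name.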

Additional observations from a re-analysis of the deposited data

Results flagged for a closer look

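The 62 sets of values examined were the 28 genes selected by size, ABCA3, the total count and the mitochondrial share, each within both groups. Genes were taken on the log2 CPM scale, and the total count and the mitochondrial share without a log. In 6 sets the gap of a library to the nearest other, as a share of the range, passed Dixon's limit, where chance gives about 1 in 20. In the MUC5AC-high libraries (limit 0.625) TINAGL1 was lowest in untreated L101P at 0.101 CPM (ratio 0.636) and DYSF in the library labelled KO transduced at 0.174 CPM (0.744). KIRREL3 was highest in transduced E690K at 1.47 CPM (0.675) and MMP28 in transduced L101P at 16.1 CPM (0.651). ABCA3 was lowest in the library labelled KO transduced at 26.0 CPM (0.828). In the DPYSL3-high libraries (limit 0.829) ANO1 was lowest in transduced WT at 1.66 CPM (0.878), against 1.93 to 1.97 CPM in the other 3.

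The response to the vector differed between the groups of lines for SCN9A, by 1.69 on the log2 scale (edgeR adjusted p 0.0146), and for ADAMTS12, by 2.78 (edgeR adjusted p 0.0226). Both were higher in the transduced library of WT and of E292V. Without the KO pair the adjusted p was 0.252 for SCN9A and 0.351 for ADAMTS12, and over the alternatives run the adjusted p of SCN9A reached 0.995.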

How the results depend on the processing

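The direction of the difference between the groups held in these settings for each gene named by the selection rule except ABCA3, whose log2 difference of -0.04 was -0.65 to 0.40 with 1 line left out, 0.45 with the line as a replicate block, 0.32 in the transduced libraries alone, 0.15 in the additive fit, 0.24 without L101P, 0.18 without E690K and 0.083 without the transduced L101P library. Between the groups 2361 genes were called, against 565 with counts summed by line, 194 in the untreated and 417 in the transduced libraries alone, 405 to 2140 with 1 line left out and 1968 with the replicate block (limma voom, which kept the call of all but 3 of the named genes). DESeq2 called 3096, no filter 2718 and the additive fit 3376. Of 28 genes selected by size, 8 were not called in the untreated libraries alone and 2 (CST1, MMP28) not in the transduced ones.

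The 21 interaction genes became 307 with no filter on low counts, 85 by DESeq2, 6 with the KO labels exchanged, 0 to 79 with 1 line left out (33 without WT, 4 without E292V, 49 without L101P, 0 without KO), 0 with no replicate block for line (edgeR, smallest adjusted p 0.995, 630 at an unadjusted p under 0.05) and 124 without the transduced L101P library, a setting chosen after seeing the data. For E292V against WT, KO against L101P, KO against E690K and L101P against E690K the counts of 189, 25, 295 and 124 became 662, 186, 787 and 617 with no filter, 429, 87, 624 and 408 by DESeq2, and 105, 11, 107 and 38 with the KO labels exchanged. With 1 of the other lines left out they were 57 to 689, 10 to 23, 267 to 909 and 28 to 136. Fitted on the 4 libraries of the lines compared, the first 3 were 734, 186 and 1645, and KO against L101P was 83 without the transduced L101P library. The causes were not tested. A line that a contrast compares cannot be left out of it, so those fits were not run. No line has a second library of the same treatment, which limits every error given here to the spread between libraries of different lines and treatments.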
